A study of Mus musculus with 11 samples.

Results

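The change in RNA from the zygote to the 2-cell embryo was described in mouse embryos made by intracytoplasmic sperm injection (ICSI), in which a sperm is injected into an oocyte. The comparison set 3 libraries of ICSI 2-cell embryos against 3 libraries of ICSI zygotes, 6 of the 11 RNA-seq libraries of the series, across all genes of 1 deposited expression table. All embryos were C57BL/6, carried no engineered allele that the labels name, and ICSI embryos were cultured in KSOM, a medium for preimplantation embryos. The other 5 libraries, 2 of zygotes and 3 of 2-cell embryos, came from round spermatid injection (ROSI), in which 5 mM strontium chloride (1 to 2 h) served to activate the egg, before culture in KSOM. Libraries were made from 1 ng of total RNA with a stranded SMART-seq kit. The labels give neither the hour of collection nor the number of embryos in a library, nor whether the replicates were independent cultures, and the p-values therefore refer only to variation among the libraries at hand.

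A mouse egg stops transcription before it is ovulated, and the zygote lives on RNA and protein stored during oocyte growth. After fertilization much of this maternal RNA is deadenylated and degraded, while the embryonic genome is switched on in a minor wave in the zygote and a major wave in the 2-cell embryo. The 2-cell wave is known for genes that are read almost nowhere else, such as Zscan4 and Zfp352, and for genes of ribosome production that every growing cell uses.

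Values are TPM, the level of a transcript per length, scaled to the same total in each library, and so a share of the RNA in that library. Differences are 2-cell minus zygote of log2(TPM + 1) from a limma fit over all genes, with the standard error (SE), and understate the fold of genes near 0. A gene is said to have risen or fallen where the limma p-value adjusted by Benjamini-Hochberg was under 0.05. Folds of single genes are ratios of mean TPM, while counts of genes beyond a given fold use the difference of log2(TPM + 1). The recovered depth was 70.7 to 83.0 M reads in the zygote libraries and 8.48, 30.1 and 32.9 M reads in the 2-cell libraries, so depth differed with stage. For a transcript of 2 kb, 3 reads were worth 0.0581 to 0.0677 TPM in zygotes and 0.110 to 0.396 TPM in 2-cell embryos. Without the shallowest 2-cell library, 7384 genes rose and 7250 fell, against 7246 and 7687 with it.

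RNA classes shifted before any single gene is considered. Protein-coding genes held 71.3% ± 0.197 of TPM in zygotes (SD, n = 3) and 49.3% ± 2.46 in 2-cell embryos (SD, n = 3). The 2 mitochondrial ribosomal RNAs rose from 8.01% to 16.3% of TPM, and mt-Rnr2, the larger of them, stood at 44955, 50089 and 47408 TPM in zygotes and at 104344, 96288 and 105085 TPM in 2-cell embryos. Rn7sk, the small nuclear RNA that holds the elongation kinase P-TEFb inactive, took 2.16% of TPM in zygotes and 6.49% in 2-cell embryos. Rpph1, the RNA subunit of ribonuclease P, rose from 0.671% to 1.90%, and Gm23935, a single locus annotated as a microRNA gene, rose from 9.14% to 16.7%. TPM add up to the same total in each library, so a larger share of these abundant RNAs without a coding sequence goes with a smaller share of messenger RNA. With TPM rescaled over protein-coding genes alone, the median of all genes moved from 0.00 to 0.39, and 9080 genes rose and 5824 fell in place of 7246 and 7687. The fall of a gene is therefore a fall in its share of the library. RNA per embryo was not measured, so less of its RNA per embryo and more RNA of other kinds cannot be told apart. Small nuclear and nucleolar RNA held 0.572% of TPM in ICSI zygote replicate 1 against 1.64% in both others, and 1.28% to 1.64% in 2-cell embryos.

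**Figure D1:**
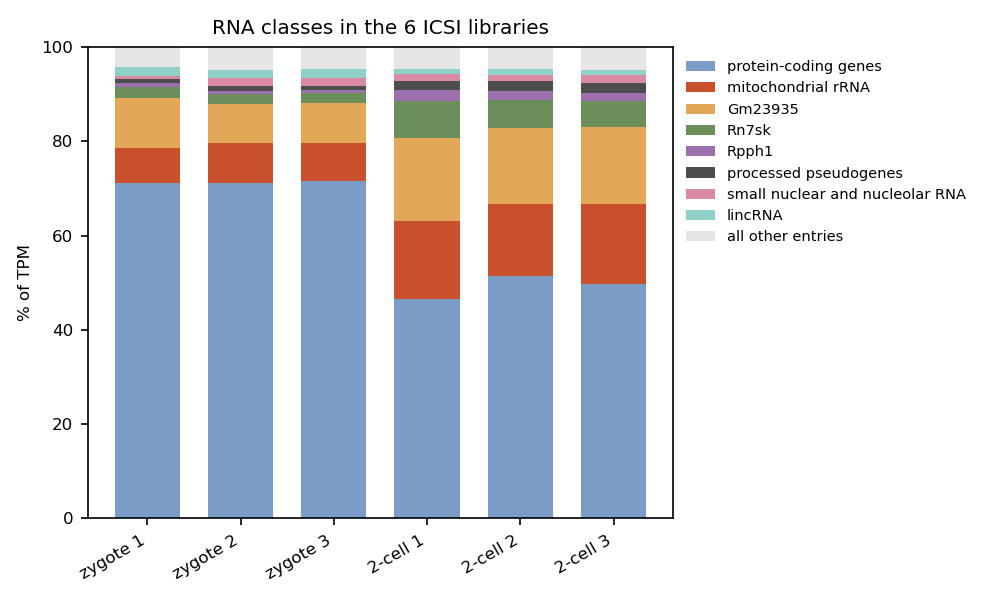
Share of TPM (y axis, percent) by RNA class in each of the 3 ICSI zygote and 3 ICSI 2-cell libraries (x axis). Protein-coding genes take about the same share in the 3 zygote libraries and a lower one in all 3 2-cell libraries, where mitochondrial ribosomal RNA, Gm23935 and Rn7sk take more.

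Most genes moved. Of 21938 genes tested 68.1% changed in one or the other direction. In all, 7246 rose (33.0%) and 7687 fell (35.0%) from zygote to 2-cell embryo, and 2475 were at least 4-fold higher (11.3%) and 1861 at least 4-fold lower (8.48%) on the log2(TPM + 1) scale. The 3 zygote libraries did not overlap the 3 2-cell libraries in 15830 of the 21938 genes tested (72.2%). Among the 14933 genes that rose or fell, which were called on the same values, this held for 14643. Among protein-coding genes 4617 rose and 6139 fell of 13925 tested, with a median log2 difference of -0.21. On the log2(TPM + 1) scale large rises outnumbered large falls: 277 protein-coding genes were at least 16-fold higher and 56 at least 16-fold lower. Such counts depend on the pseudocount. With 5 in place of 1, 985 of all genes were at least 4-fold higher and 970 at least 4-fold lower. Rescaling over protein-coding genes gave 3957 genes at least 4-fold higher and 1302 at least 4-fold lower.

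**Figure D2:**
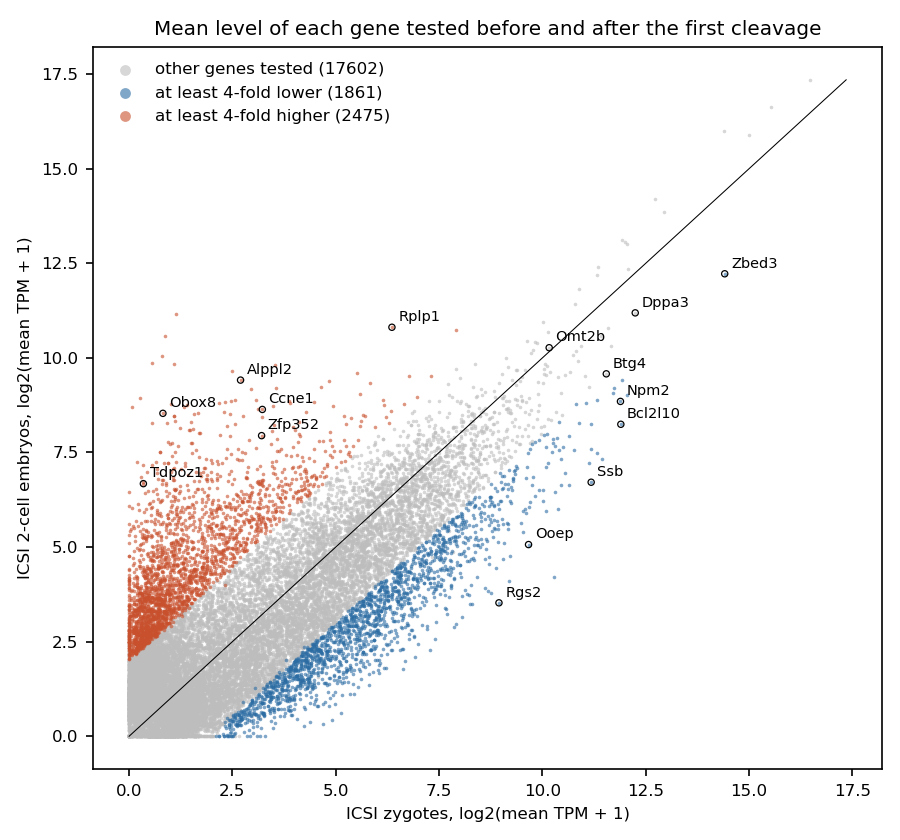
Mean level of each of the 21938 genes tested in ICSI zygotes (x axis) and ICSI 2-cell embryos (y axis), both as log2(mean TPM + 1), with genes called and at least 4-fold higher (2475) or lower (1861) in colour and the line of equal level drawn. Rises start from low zygote levels, as for Obox8 and Tdpoz1, while falls such as those of Ooep, Npm2 and Ssb start from high ones.

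Direction went with abundance in the zygote. To keep the ICSI values out of the sorting, protein-coding genes were ordered by their level in the ROSI zygotes, which do not enter the ICSI difference. Of the 64 genes over 1000 TPM there, 84.4% fell after ICSI and 53.1% fell at least 4-fold. Among 4817 genes between 10 and 100 TPM, 63.5% fell and 19.8% rose, with a median difference of -0.80. Genes under 1 TPM, 2728 in number, rose in 64.8% of cases and fell in 3.63%, and 22.6% were at least 4-fold higher. A gene at such a level could hardly fall, so its direction is limited from below. To be tested, it also had to reach 1 TPM in a library outside the ROSI zygotes, which can be an ICSI library. The filter on low values could thus admit such a gene because it was high at the later stage. This can raise the share of rises among these genes, and how far it set the 64.8% was not tested.

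The genes that changed most carried a large part of the coding RNA. The 1488 protein-coding genes at least 4-fold lower held 34.4% to 35.5% of protein-coding TPM in the ICSI zygotes and 7.04% to 7.37% in the ICSI 2-cell embryos. The 1482 genes at least 4-fold higher went from 0.901% to 0.985% up to 15.99% to 16.99%. The ROSI libraries entered the choice of these genes only through the filter on low values and the shared estimate of spread. In them the first set took 34.5% and 36.0% in zygotes and 6.16% to 6.88% in 2-cell embryos. The second set took 0.954% and 0.980% in zygotes against 16.998% to 18.4% in 2-cell embryos.

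Genes of the 2-cell program rose as a block. Over all genes tested 33.0% rose and 35.0% fell. Of 39 members tested 36 rose and 2 fell, with a median log2 difference of 4.01 beside 0.00 over all genes, and 32 rose at least 4-fold. This list was written from knowledge of the same stage. Like the other gene lists, it was also chosen with earlier results of these data known, so its counts are a description and no independent support. Zfp352, a zinc finger gene that arose from a retrotransposed copy, stood at 12.5, 5.55 and 6.59 TPM in zygotes and at 266, 231 and 238 TPM in 2-cell embryos, with a difference of 4.81 (SE 0.24, limma adjusted p = 2.57e-08). The groups were far apart, and the gene was already seen in every zygote library. Tdpoz1, one of a tandem family of genes with TRAF and BTB domains, went from 0.214, 0.119 and 0.480 TPM to 97.0, 106 and 101 TPM. Trim43a, a tripartite-motif gene of the cleavage stages, averaged 0.790 TPM and then 148 TPM, and its neighbour Trim43b 0.995 TPM and then 211 TPM. Usp17lb, of a multicopy family of deubiquitinases, rose 158-fold to 271 TPM. Members of such families are near-identical copies, and how reads were shared among them is not given in the sources used here.

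The Zscan4 genes, known for telomere lengthening in embryonic stem cells, rose by less than these. Zscan4d was at 11.8, 8.51 and 8.66 TPM in zygotes and 60.4, 46.6 and 45.2 TPM in 2-cell embryos, a 5.25-fold rise. Zscan4c rose 7.43-fold from 3.89 TPM, and Tcstv3, another gene of the 2-cell state, 13.6-fold from 16.0 TPM to 217 TPM. Its relative Tcstv1 stood at 33.6, 27.2 and 30.5 TPM before and 37.6, 37.0 and 39.1 TPM after, and missed the threshold (0.31, SE 0.14, limma adjusted p = 0.0719), but was called higher under 5 alternatives, with 0.31 to 0.84. Duxf3 encodes Dux, a transcription factor that opens the 2-cell program. Duxf3 went the other way, from 13.7, 9.95 and 9.01 TPM to 0.490, 1.73 and 1.03 TPM, and fell by 2.53 on the log2 scale (SE 0.27, limma adjusted p = 8.8e-06).

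Oocyte-specific homeobox (Obox) genes changed places. Obox8 was at 1.16, 0.239 and 0.890 TPM in zygotes and at 317, 379 and 413 TPM in 2-cell embryos, the largest rise among genes that have a symbol other than a predicted or clone name (7.75, SE 0.19, limma adjusted p = 3.29e-10). Gm12789, a gene with a predicted name that was singled out after its values were seen, rose by 8.67, from 0.0786, 0.121 and 0.412 TPM to 474, 493 and 489.9 TPM. Obox6 rose 310-fold to 353 TPM and Obox3 120-fold to 102 TPM. Obox5 moved in the opposite direction, from 1186, 1208 and 1201 TPM to 180, 192 and 167 TPM. Obox1 fell 12.6-fold from 823 TPM and Obox7 10.6-fold from 210 TPM. Among all 34 transcription factors listed for genome activation 20 rose and 9 fell, beside 33.2% higher and 44.1% lower over all protein-coding genes. The median of this list was 0.74. Zscan5b, of the same zinc finger family as Zscan4, rose 113-fold to 257 TPM, and Crxos, an Obox neighbour on chromosome 7, 137-fold to 100.1 TPM. Nr5a2, an orphan nuclear receptor of early embryos, started at 34.8 TPM and rose 2.40-fold. Klf5, a zinc finger factor of the first lineages, rose from 7.90, 3.80 and 4.20 TPM to 148, 184 and 139 TPM.

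**Figure D3:**
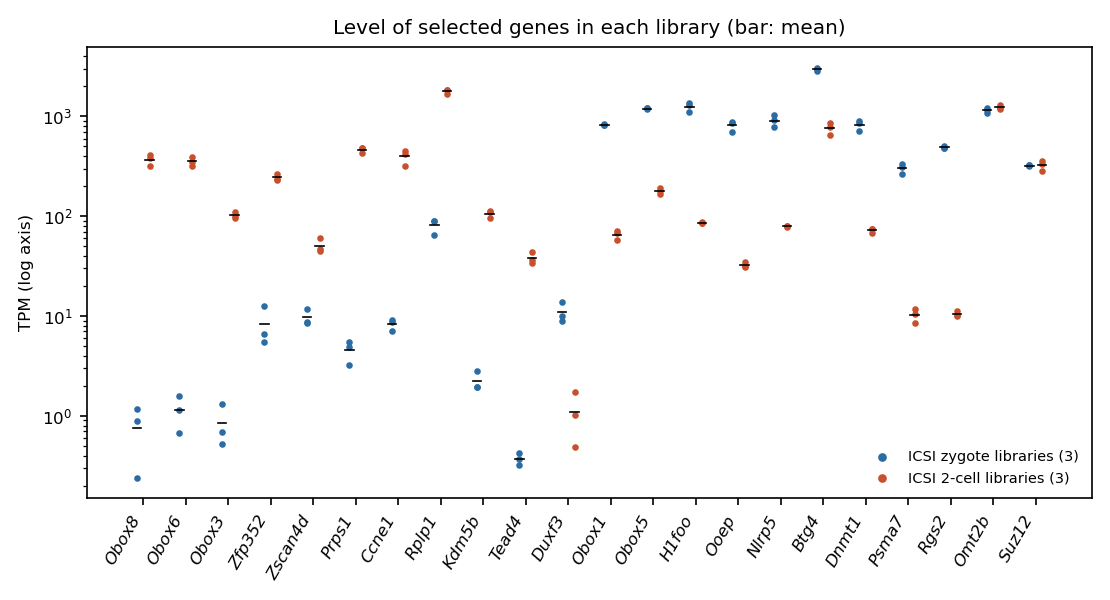
TPM on a log axis (y axis) of 22 genes (x axis) in each of the 3 ICSI zygote and 3 ICSI 2-cell libraries, with a bar at each mean. Obox8, Obox6 and Obox3 lie low in zygotes and high in 2-cell embryos, Obox1, Obox5 and Duxf3 the reverse, and the libraries of Omt2b and Suz12 lie at about the same level.

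Promoters of 6 genes that rose are printed, chosen among the 10 named ones that hold the letters searched for. The Obox proteins belong to the paired-like homeodomain proteins, many of which bind the letters TAATCC. This run was searched on both strands of the 250 bases before and 50 bases after the start in the RefSeq promoters of build GRCm38.p6, taking the first start listed for a gene. It was held by 9.18% of 1078 promoters of protein-coding genes at least 4-fold higher, 6.12% of 1177 at least 4-fold lower, 5.51% of 8554 others tested and 7.16% of all 27025 in the table. Of 10167 genes without the letters 9.63% were at least 4-fold higher, against 14.4% of 605 with 1 site and 31.2% of 32 with 2 sites, which are 10 genes. At least 4-fold lower were 10.87%, 11.74% and 3.125% in the same order. Of 5 genes with 3 or more sites 2 were higher and 0 lower. Near-identical copies were counted as separate genes here, and the differences in share were not tested. Of the 93 named genes that rose at least 4-fold 63 had a promoter in the table, and 10 of these held the letters. A match is a description of letters, and binding was not measured. In these 6 promoters capitals mark TAATCC, or GGATTA where it lies on the other strand, and each is written 5′ to 3′ along its gene.
Zfp352, chr4:90218570-90218869, plus strand: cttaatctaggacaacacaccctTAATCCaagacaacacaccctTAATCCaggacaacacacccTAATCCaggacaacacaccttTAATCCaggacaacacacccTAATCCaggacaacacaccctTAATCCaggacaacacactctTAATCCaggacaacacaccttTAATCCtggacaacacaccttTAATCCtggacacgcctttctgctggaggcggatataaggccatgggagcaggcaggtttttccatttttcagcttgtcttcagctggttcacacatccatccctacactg
Kdm4c, chr4:74242247-74242546, plus strand: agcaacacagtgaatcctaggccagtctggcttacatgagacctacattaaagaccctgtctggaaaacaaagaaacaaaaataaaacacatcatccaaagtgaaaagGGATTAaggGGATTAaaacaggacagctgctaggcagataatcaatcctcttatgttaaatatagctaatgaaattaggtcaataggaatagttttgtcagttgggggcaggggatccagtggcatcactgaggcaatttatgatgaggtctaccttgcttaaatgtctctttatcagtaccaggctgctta
Tdpoz1, chr3:93676234-93676533, minus strand: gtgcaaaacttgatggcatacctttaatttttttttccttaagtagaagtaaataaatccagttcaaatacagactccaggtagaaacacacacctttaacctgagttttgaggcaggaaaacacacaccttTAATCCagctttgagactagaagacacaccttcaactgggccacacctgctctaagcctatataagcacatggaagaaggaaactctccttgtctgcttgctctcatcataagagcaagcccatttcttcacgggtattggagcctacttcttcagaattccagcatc
Trim43a, chr9:88580641-88580940, plus strand: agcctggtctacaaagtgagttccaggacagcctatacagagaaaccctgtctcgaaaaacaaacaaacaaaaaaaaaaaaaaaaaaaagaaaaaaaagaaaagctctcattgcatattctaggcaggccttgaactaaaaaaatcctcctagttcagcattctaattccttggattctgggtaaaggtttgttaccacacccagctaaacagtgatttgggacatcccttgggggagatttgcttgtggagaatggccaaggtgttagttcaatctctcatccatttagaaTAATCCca
Obox3, chr7:15639728-15640027, minus strand: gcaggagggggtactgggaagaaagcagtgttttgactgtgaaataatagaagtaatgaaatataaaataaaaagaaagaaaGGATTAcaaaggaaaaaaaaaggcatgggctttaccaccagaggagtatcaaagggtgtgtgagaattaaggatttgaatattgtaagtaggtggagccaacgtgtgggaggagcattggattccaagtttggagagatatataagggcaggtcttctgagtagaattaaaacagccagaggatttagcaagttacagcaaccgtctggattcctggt
Prps1, chrX:140456353-140456652, plus strand: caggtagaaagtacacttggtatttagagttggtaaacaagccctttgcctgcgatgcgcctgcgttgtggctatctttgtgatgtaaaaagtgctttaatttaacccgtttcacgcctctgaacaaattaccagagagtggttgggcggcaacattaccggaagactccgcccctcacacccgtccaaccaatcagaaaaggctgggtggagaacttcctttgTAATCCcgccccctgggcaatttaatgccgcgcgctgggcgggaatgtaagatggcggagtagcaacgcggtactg
The promoter of Zfp352 held 9 matches, spaced along a short repeat, the most of any named gene. Kdm4c, a histone H3K9 demethylase, had 2 matches and rose from 1.25 to 32.0 TPM, and the other 4 promoters had 1 each. Zscan4c, Zscan4d, Crxos and Usp17lb had none in this window.

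Outside these families, the largest rises were in genes of varied function. Selenos, a selenoprotein that helps to export misfolded proteins from the endoplasmic reticulum, went from 1.78, 1.97 and 0.764 TPM to 393, 424 and 429 TPM. Slc34a2, a sodium-phosphate transporter, rose 261-fold to 431 TPM, and Slc19a3, a thiamine transporter, 144-fold to 275 TPM. Alppl2, a placental-type alkaline phosphatase also known from naive stem cells, reached 680 TPM from 5.48 TPM. Calcoco2, an autophagy receptor, Pramel7, a factor of ground-state pluripotency, and Cd63, a tetraspanin of late endosomes, rose 234-fold, 268-fold and 264-fold. Ppp2cb, a catalytic subunit of protein phosphatase PP2A, averaged 0.667 TPM and then 180 TPM. In all, 464 protein-coding genes went from under 1 TPM in each zygote library to a mean of at least 5 TPM.

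Among genes of ribosome production more rose than fell, beside 33.2% higher and 44.1% lower over all protein-coding genes. Of 79 cytosolic ribosomal protein genes 55 rose and 11 fell, with a median of 1.01, and 26 rose at least 4-fold. Rplp1, of the ribosomal stalk, was at 64.2, 88.7 and 90.3 TPM in zygotes and 1684, 1841 and 1853 TPM in 2-cell embryos (4.46, SE 0.17, limma adjusted p = 3.53e-09). Rpsa, of the small subunit, rose 39.7-fold from 3.75 TPM, and Rps27 29.6-fold from 2.78 TPM. Ribosomal protein genes have many processed pseudogenes, whose reads may be shared with them, and processed pseudogenes as a class went from 0.938% to 2.06% of TPM. Of 55 ribosome biogenesis genes 33 rose and 16 fell, with a median of 0.67. Nop2, a methyltransferase of the large ribosomal RNA, went from 3.76, 3.51 and 3.49 TPM to 91.6, 128 and 129 TPM, and Ubtf, the activator of RNA polymerase I, rose 21.9-fold. Rrs1, needed for large-subunit assembly, rose 28.2-fold. Stored members of the same list fell: Bms1, a GTPase of small-subunit assembly, from 1031 to 89.2 TPM, and the nucleolar proteins Ncl and Npm1 by 2.05-fold and 2.01-fold, to 269 and 748 TPM. The fall of Npm1 was not called with quantile normalization (-0.17).

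Enzymes of the first steps of purine synthesis were among the genes that rose. Prps1, which makes the phosphoribosyl donor of nucleotide synthesis, stood at 5.50, 4.86 and 3.24 TPM in zygotes and 425, 480 and 482 TPM in 2-cell embryos, a 102-fold rise (6.41, SE 0.14, limma adjusted p = 2.63e-10). Ppat, the committed enzyme of purine synthesis, rose 72.5-fold to 97.6 TPM. The guanine nucleotide enzymes Impdh2 and Impdh1 rose 45.0-fold and 45.4-fold. The whole list of 29 was split, with 13 higher, 12 lower and a median of 0.00. Over all protein-coding genes 33.2% were higher and 44.1% lower.

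Other machines of gene expression had members in both directions, at shares near those over all protein-coding genes (33.2% higher, 44.1% lower) for RNA polymerase II and translation. Of 40 genes of RNA polymerase II and its general factors 15 rose and 18 fell, with a median of -0.06 that was 0.47 when scaled over protein-coding genes. Cdk9, the kinase of P-TEFb, rose 16.8-fold from 3.95 TPM, and Polr2h, a subunit shared by the RNA polymerases, 12.0-fold. Gtf2b, which encodes TFIIB, fell from 209, 232 and 251 TPM to 15.8, 16.7 and 17.7 TPM. Of 44 spliceosome genes 14 rose and 25 fell, with a median of -0.59, and 16 and 19 with a median of -0.07 when scaled over protein-coding genes. Snrpc of the U1 particle rose 9.04-fold, while Prpf6 of the tri-snRNP fell 12.1-fold. Of 41 translation factors 14 rose and 16 fell (median -0.08, or 0.46 scaled over protein-coding genes). Eif3a, the largest subunit of initiation factor eIF3, went from 70.8 to 434 TPM. Eif1a and Eif1ax, autosomal and X-linked copies of initiation factor eIF1A, crossed: Eif1a went from 1.52 to 20.3 TPM and Eif1ax from 110 to 13.2 TPM.

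Genes of import into the nucleus moved both ways. Kpna1, an importin alpha, rose from 1.92, 1.46 and 1.58 TPM to 84.9, 105 and 107 TPM. Kpna7, the importin alpha of the oocyte, fell 10.6-fold from 339 TPM, and the pore subunit Nup37 13.8-fold from 140 TPM. Of the 35 genes of pores and import 13 rose and 19 fell, with a median of -0.64, and 15 rose and 15 fell with a median of -0.11 when scaled over protein-coding genes.

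Proteasome subunits and transfer RNA synthetases fell in share more often than protein-coding genes in all, of which 44.1% fell and 33.2% rose, a difference that was not tested. Of 31 proteasome genes 23 fell and 7 rose, with a median of -1.55. Psma7, an alpha subunit of the core, stood at 267, 334 and 311 TPM in zygotes and at 11.8, 10.5 and 8.60 TPM in 2-cell embryos (fell by 4.76, SE 0.12, limma adjusted p = 3.54e-10). Psmc1, an ATPase of the cap, fell 13.2-fold from 395 TPM. Psmb5, the subunit with chymotrypsin-like activity, went against them and rose from 2.76, 1.92 and 5.08 TPM to 34.6, 36.7 and 40.0 TPM. Of 22 aminoacyl-tRNA synthetase genes 14 fell and 6 rose. Sars, the cytosolic serine enzyme, fell 8.01-fold, and Yars, the tyrosine enzyme, rose 19.4-fold from 0.366 TPM.

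Lists of genes known from the oocyte fell in share. Over all protein-coding genes tested 33.2% rose and 44.1% fell. In the list of oocyte Nlrp genes and the subcortical maternal complex, a protein assembly under the egg membrane that is needed for the first divisions, 40 of 42 members tested fell, 1 rose and the median was -2.13. The list median stayed negative under each scaling run, at -1.61 when scaled over protein-coding genes, with 33 lower and 2 higher. Ooep went from 701, 855 and 874 TPM to 31.1, 31.4 and 35.0 TPM, and Nlrp5, also called Mater, from 778, 914 and 1023 TPM to 80.4, 80.3 and 78.7 TPM. Both are members of the complex, and in both every 2-cell library lay far below every zygote library. Rfpl4, an oocyte RING finger gene, fell from 2223 TPM to 148 TPM, and Padi6, a peptidylarginine deiminase of egg lattices, 6.38-fold from 607 TPM. Omt2b, an oocyte transcript of the same list, was at 1070, 1207 and 1159 TPM before and at 1200, 1300 and 1195 TPM after and did not pass (0.11, SE 0.10, limma adjusted p = 0.348), and was called higher when scaled over protein-coding genes (0.64) or by quantile normalization (0.98). Zbed3, the protein-coding gene of highest level in zygotes, averaged 21759 TPM there and 4774 TPM in 2-cell embryos.

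Proteins of the egg coat and secreted oocyte factors followed. Of 15 genes tested 12 fell and none rose at adjusted p under 0.05, with a median of -1.70 and of -1.16 when scaled over protein-coding genes, where 1 rose. Oosp2 and Oosp3, oocyte-secreted proteins, fell 18.7-fold and 12.2-fold, and Fetub, which keeps the zona from hardening early, 22.6-fold. Izumo1r, the egg receptor for sperm also called Juno, went from 172, 152 and 140 TPM to 16.8, 13.9 and 15.6 TPM. The growth factors Bmp15 and Gdf9 fell 6.56-fold and 3.26-fold, from 1591 and 690 TPM.

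Of 40 regulators of meiosis and of egg activation 26 fell and 8 rose, beside 44.1% lower and 33.2% higher over all protein-coding genes. Camk2g, the kinase that carries the calcium signal of fertilization, fell 8.07-fold from 426 TPM, and Ccnb2, a B-type cyclin, 7.32-fold. Cdc25c, a phosphatase that starts mitosis, rose 13.1-fold while Cdc25a of the same family fell 7.90-fold. Mos, the kinase of the egg arrest, was already at 21.3 TPM in zygotes and fell 2.06-fold. Of 39 genes that store or translate maternal RNA 25 fell and 4 rose. Dazl, an RNA-binding protein of germ cells, fell from 498, 485 and 469 TPM to 31.9, 36.6 and 33.2 TPM, and Zar1l, a zygote arrest protein, fell 14.0-fold. The decay machinery itself was mixed, with 28 lower, 19 higher and a median of -0.48 (0.04 when scaled over protein-coding genes). Btg4, the adaptor that recruits the CCR4-NOT deadenylase to maternal RNA, fell from 2875, 3085 and 2999 TPM to 654, 858 and 777 TPM. Cnot11, a subunit of that complex, fell 13.1-fold.

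The largest falls of single genes were spread over many functions. Rgs2, a regulator of G protein signalling that restrains early calcium release in eggs, stood at 487, 509 and 483 TPM and then at 10.1, 11.3 and 10.1 TPM (fell by 5.42, SE 0.15, limma adjusted p = 4.84e-10). Pfdn4, a prefoldin subunit, fell 35.7-fold, and Glrx, a glutaredoxin, 33.6-fold. Ssb, the La protein that binds new RNA polymerase III transcripts, went from 2317 to 104 TPM. Gspt2, a release factor of translation, fell 34.2-fold from 169 TPM. Transcripts that disappeared were fewer than those that appeared: 81 protein-coding genes went from a mean of at least 5 TPM to under 1 TPM in each 2-cell library, against 464 the other way. With limits of 0.5 and 10 TPM these were 2 and 92.

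Families with an oocyte member and a general member were compared in pairs, which were chosen for an oocyte form that is known to be stored. The general member rose in 6 of 18 pairs, fell in 9 and was not called in 3, beside 33.2% higher and 44.1% lower over all protein-coding genes. The oocyte member fell in 17, and the exception was Taf4b, a subunit of the general factor TFIID, which rose 5.28-fold while its relative Taf4 did not pass (-0.17, SE 0.10, or 0.36 when scaled over protein-coding genes). Pabpn1l, an oocyte poly(A)-binding protein, went from 233, 237 and 227 TPM to 5.09, 4.40 and 9.51 TPM, while Pabpn1, the nuclear poly(A)-binding protein, went from 17.2, 15.9 and 16.2 TPM to 118, 126 and 121 TPM. Pabpc1l fell 12.1-fold to 13.7 TPM and Pabpc1, its cytoplasmic counterpart, rose 46.3-fold to 193 TPM. The general member thus became the more abundant in both families. The survival factors Bcl2l10 and Mcl1 moved from 3811 and 6.09 TPM to 302 and 115 TPM, so that Bcl2l10 still stood above Mcl1. Wee2, which holds the egg in meiosis, fell 2.38-fold and Wee1 rose 4.35-fold, and Btg1 rose 3.76-fold beside the fall of Btg4. Aurkc of meiosis fell 6.16-fold and Aurkb of mitosis rose 1.98-fold. In other pairs both fell: the linker histone H1foo by 14.5-fold and H1f0 by 2.43-fold, Npm2 by 8.23-fold and Npm1 by 2.01-fold, and Kpna7 by 10.6-fold and Kpna2 by 3.40-fold. Among these, Npm1 was not called with quantile normalization (-0.17). Eif4e, the general cap-binding protein, stood at 157 TPM and 149 TPM and did not pass, with a sign that turned under all 3 other scalings, as Eif4e1b fell 3.62-fold.

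**Figure D4:**
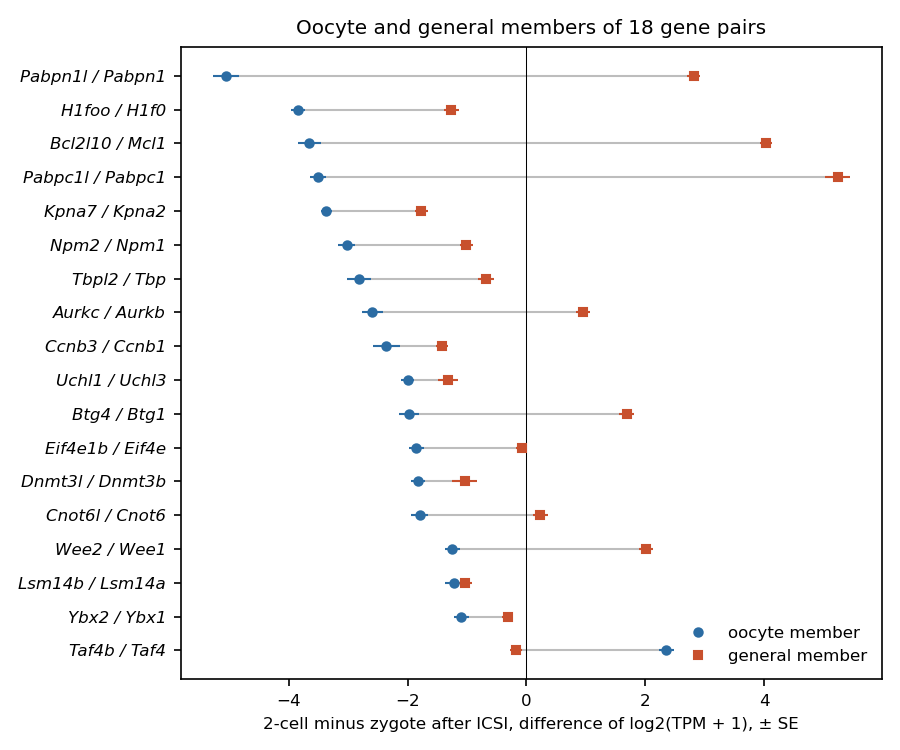
Difference of log2(TPM + 1), 2-cell minus zygote after ICSI, with its SE (x axis), for the oocyte member (circles) and the general member (squares) of 18 gene pairs (y axis). The oocyte member lies left of 0 in 17 pairs, and the general member lies right of 0 and was called higher for Pabpn1, Mcl1, Pabpc1, Aurkb, Btg1 and Wee1.

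Histone genes of S phase rose. Of 62 replication-dependent histone genes tested 52 rose and 2 fell, beside 33.2% higher and 44.1% lower over all protein-coding genes. Their median was 1.47, and together they went from 1.22% ± 0.0496 to 2.12% ± 0.118 of TPM (SD, n = 3 each). Hist1h2ai went from 19.6, 4.36 and 6.78 TPM to 446, 456 and 371 TPM, and Hist2h2ac from 8.27 to 346 TPM. The zygote libraries differed among themselves for Hist1h2ai, with replicate 1 the highest, and none reached the 2-cell range. These genes are short, alike in sequence and make RNA without a poly(A) tail, which a library from total RNA can hold. The variant H2afz rose 19.8-fold and the linker histone Hist1h1b 17.9-fold, as the oocyte linker H1foo fell from 1097, 1368 and 1298 TPM to 86.0, 84.8 and 88.2 TPM. The chaperone Asf1a, which hands histones to new DNA, fell 8.95-fold.

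Chromatin enzymes moved in both directions, at shares near those over all protein-coding genes (33.2% higher, 44.1% lower). Dnmt1, which maintains DNA methylation, went from 720, 865 and 898 TPM to 67.6, 74.3 and 73.8 TPM (fell by 3.50, SE 0.11, limma adjusted p = 1.16e-09). Tet3, which oxidizes methylcytosine in the zygote, fell 3.65-fold from 292 TPM, while Tet1 rose 28.0-fold from 1.18 TPM to 32.9 TPM. Dppa3, which shields maternal methylation, fell 2.08-fold and remained at 2333 TPM. On the side of histone H3K9, the methyltransferase Suv39h1 rose 36.3-fold, and the demethylases Kdm4c and Kdm3a rose 25.6-fold and 17.2-fold. Kdm5b, an H3K4 demethylase, went from 2.79, 1.93 and 1.95 TPM to 95.1, 113 and 111 TPM, and its relative Kdm5a rose 29.6-fold. Of the Polycomb genes Ezh2, the H3K27 methyltransferase, fell 3.47-fold from 285 TPM and Pcgf5 rose 13.3-fold to 102 TPM. Suz12, the partner of Ezh2, was at 315, 324 and 324 TPM before and 283, 355 and 331 TPM after, with overlapping libraries (0.00, SE 0.11, limma adjusted p = 0.988), although it was called higher when scaled over protein-coding genes (0.54) or by quantile normalization (0.62). Of 41 genes of Polycomb and of H3K4 or H3K27 enzymes 14 rose and 19 fell, and of 36 genes of DNA and H3K9 methylation 14 rose and 17 fell. Both list medians, -0.15 and -0.22, were above 0 when scaled over protein-coding genes, at 0.32 and 0.25.

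The S-phase cyclin rose, and genes of replication moved both ways. Ccne1, which drives entry into S phase, stood at 9.18, 8.81 and 7.04 TPM in zygotes and at 322, 422 and 448 TPM in 2-cell embryos (5.41, SE 0.14, limma adjusted p = 3.85e-10). Of 50 replication and licensing genes 31 fell and 11 rose, with a median of -0.60, beside 44.1% lower and 33.2% higher over all protein-coding genes. When scaled over protein-coding genes 23 fell and 19 rose, with a median of -0.10. Rfc3, of the clamp loader, fell from 34.6 TPM to 1.65 TPM, and Gins1 and Gins2, of the replicative helicase, fell 8.07-fold and 9.90-fold. All 3 encode parts of the replication fork.

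Several factors of the first cell lineages rose from low levels, others fell or were not called, and some stayed under 1 TPM. Tead4, needed for the trophectoderm, went from 0.323, 0.366 and 0.427 TPM to 33.8, 36.5 and 43.5 TPM, a 102-fold rise. Fgf4, the signal between the lineages of the blastocyst, rose from 0.146 to 15.5 TPM, and Id1, a target of BMP signals, 24.0-fold. Pou5f1, also called Oct4, was stored in zygotes at 283 TPM and fell 2.08-fold. Nanog stood at or under 0.784 TPM in each of the 6 ICSI libraries, and Cdx2, at or under 0.700 TPM, was not tested. Nanog missed the threshold (0.49, SE 0.21, limma adjusted p = 0.0645) and was called higher under 7 alternatives, with 0.90 when scaled over protein-coding genes. Sox2 was at 2.03, 2.44 and 2.02 TPM and then at 6.80, 3.28 and 2.53 TPM and missed the threshold (0.63, SE 0.26, limma adjusted p = 0.0502), and was called higher under 5 alternatives, with 1.14 when scaled over protein-coding genes. Of 33 genes of pluripotency and early lineage 18 rose and 6 fell, beside 33.2% higher and 44.1% lower over all protein-coding genes. Their median was 0.58, and 9 were not called. Of 65 regulators of later development only 18 passed the filter on low values, so the others were under 1 TPM in nearly all libraries. Igf2r, which clears the growth factor IGF2, rose 7.41-fold, and Cldn6, a claudin of embryonic epithelia, 23.4-fold, while the N-cadherin gene Cdh2 fell 8.81-fold.

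Genes of energy metabolism were read on the nuclear and the mitochondrial side. Of 72 nuclear genes of the respiratory chain 41 fell and 19 rose, with a median of -0.65, beside 44.1% lower and 33.2% higher over all protein-coding genes. When scaled over protein-coding genes 32 fell and 25 rose, with a median of -0.17. Ndufa8 and Ndufc2 of complex I fell 29.7-fold and 26.1-fold, and Sdhd of complex II 19.7-fold. None of the 37 mitochondrially encoded genes fell and 12 rose, and the 13 messenger RNAs among them went from 2.74% ± 0.179 to 5.44% ± 0.318 of TPM (SD, n = 3 each), with 7 called higher. For example, mt-Co1, the catalytic subunit of complex IV, was at 4425, 3539 and 3642 TPM and then at 9585, 8251 and 8738 TPM. Ldhb, the lactate dehydrogenase of the egg, fell 7.68-fold from 2321 TPM, and Idh1 fell 14.5-fold. Of 43 genes of glucose, pyruvate and lactate use 22 fell and 15 rose (median -0.46, or 0.04 scaled over protein-coding genes).

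Genes of lysosomes and of p53 rose more often than they fell, and those of other stress responses did not. Over all protein-coding genes 33.2% rose and 44.1% fell. Ctsl, a lysosomal protease, went from 5.09, 3.42 and 4.65 TPM to 304, 387 and 402 TPM. Of 36 genes of autophagy and lysosome 18 rose and 11 fell. Of 20 p53 genes and targets 11 rose and 3 fell, with a median of 0.63. Sesn2, a target of p53 and of the integrated stress response, went from 2.24 to 164 TPM, and Trib3, another gene of that response, rose 31.5-fold. Cdkn1a, which encodes the cell cycle inhibitor p21, rose 6.94-fold from 1.70 TPM to 11.8 TPM. Over the 34 genes of the integrated stress response and redox control 11 rose and 16 fell, with a median of -0.15 (0.24 scaled over protein-coding genes). Among chaperones, 10 of 25 rose and 10 fell. Hspa1a, the inducible HSP70 known as an early embryonic transcript, rose from 2.04, 0.900 and 1.07 TPM to 16.0, 14.9 and 13.0 TPM, and the chaperonin subunit Cct6a 23.5-fold to 52.8 TPM. Hsp90ab1 was at 608, 655 and 715 TPM before and 575, 684 and 601 TPM after and did not pass (-0.09, SE 0.09), and its sign turned under all 3 other scalings, to values from 0.04 to 0.68.

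**Figure D5:**
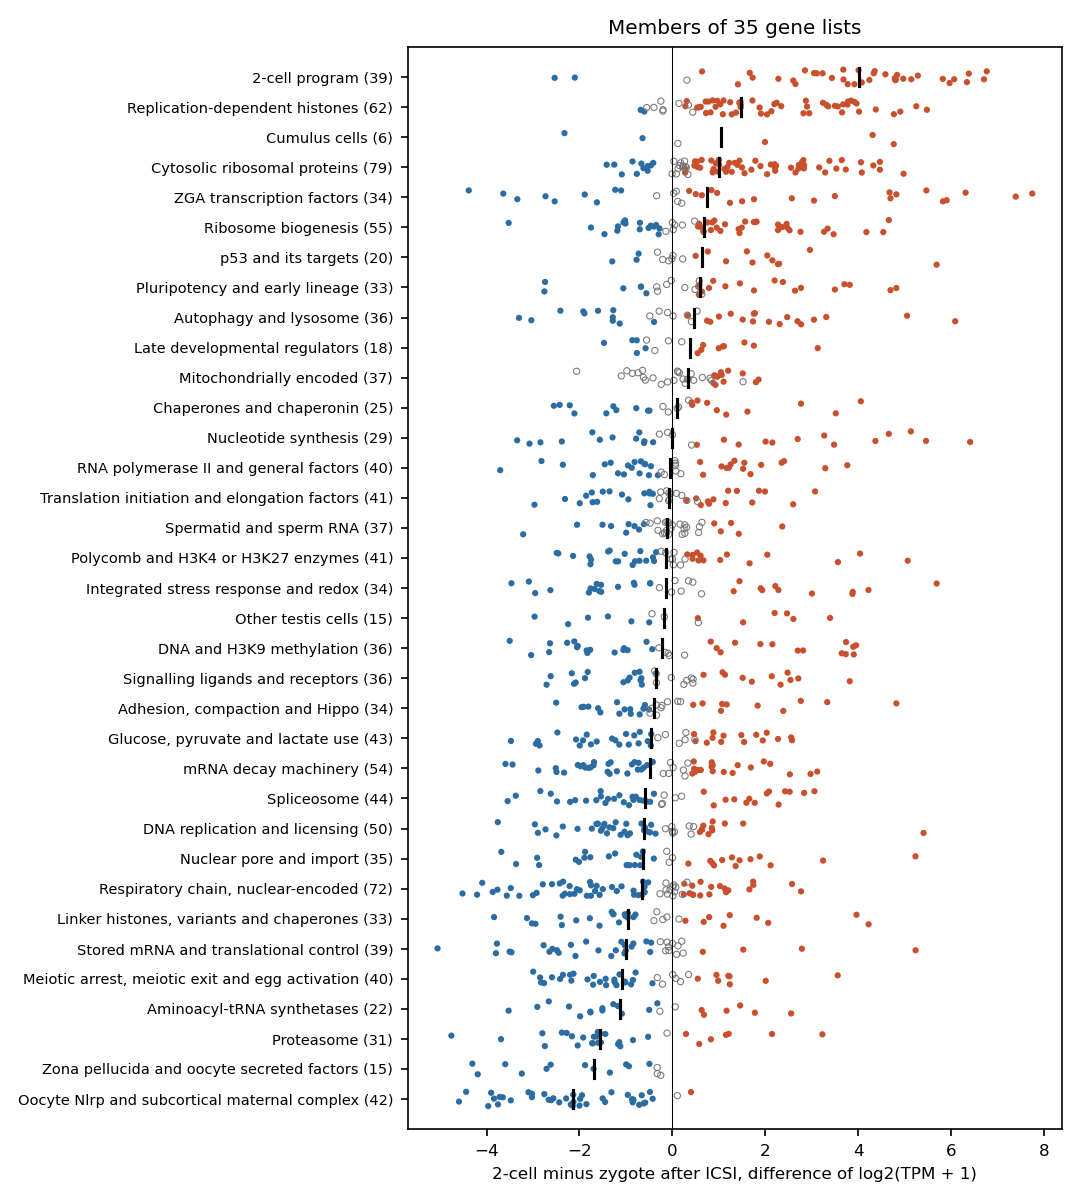
Difference of log2(TPM + 1), 2-cell minus zygote after ICSI (x axis), for each member tested of 35 gene lists (y axis, number tested in brackets), with red for genes called higher, blue for genes called lower, open circles for genes not called and a bar at the list median. The 2-cell program lies farthest to the right (median 4.01) and the oocyte Nlrp and subcortical maternal list farthest to the left (median -2.13), with members on both sides in most lists between them.

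Some genes that moved together lay side by side. Runs of neighbouring tested protein-coding genes, all at least 4-fold higher or all at least 4-fold lower, were sought in the mm10 coordinates of GENCODE M21. Each gene had to start less than 500 kb after the end of the gene before it. There were 18 runs of 4 or more genes, with 109 of the 2970 protein-coding genes at least 4-fold higher or lower (3.67%). The longest held 13 genes of the Tdpoz family and its relatives at chr3:93651542-94266784, with log2 differences from 3.11 to 6.58. A run of 12 histone genes lay at chr13:21715763-21789213 (2.19 to 5.48). A group of 9 genes with only predicted names lay at chr12:87618869-87919857 (2.65 to 6.35), and 9 genes with Tcstv3 at chr13:119912095-120318178 (3.68 to 6.27). The Zscan4 cluster gave a run of 5 at chr7:11161374-11614112. H2-Q genes, which encode nonclassical MHC class I molecules, gave 4 at chr17:35379617-35474563 with a median of 3.97. On the falling side, 7 F-box genes of the Fbxw family stood at chr9:109139447-109449140 (median -3.30), followed by 6 more at chr9:109552602-109790670. The oligoadenylate synthetase-like Oas1 genes of the oocyte gave a run of 5 at chr5:120786226-120921652 with a median of -3.98, and Oas1h, one of them, went from 392, 418 and 417 TPM to 14.6, 11.6 and 14.0 TPM. Near-identical copies in such runs can share reads, so their members do not count as separate findings.

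Transcripts of the 2 directions were compared in form. Transcripts with a single exon made up 7.37% of genes at least 4-fold higher, 2.22% of those at least 4-fold lower and 3.11% of the others, of 1466, 1487 and 10903 with a model. The median transcript length was 2473, 2309 and 2882 bases in the same order. A cytoplasmic polyadenylation element, TTTTAT or TTTTAAT on the sense strand in the last 100 bases of the transcript, was held by 16.5%, 18.98% and 18.9%. The CCAAT box, searched on both strands of the promoters, was held by 39.3% of the higher and 39.3% of the other genes, and by 37.9% of all promoters. Unprocessed pseudogenes were at least 4-fold higher in 23.9% of 310 and lower in 4.19%. Processed pseudogenes were higher in 13.3% of 1951 and lower in 3.08%.

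Markers of cells that could accompany the embryo were read from lists as well. Of 25 cumulus cell markers 1 to 3 reached 1 TPM in each zygote library and 5 in each 2-cell library, and their summed level was 16.98 to 19.7 TPM and 62.7 to 76.3 TPM. Most of the 2-cell sum came from Gja1, a connexin, at 28.2 TPM and Amhr2, the receptor of anti-Müllerian hormone, at 33.2 TPM. The part of cumulus RNA in the stage change was not tested. Spermatid and sperm transcripts summed to 462 to 473 TPM in zygotes and 176 to 193 TPM in 2-cell embryos, with 9 of 37 tested lower and 5 higher. Over all protein-coding genes 44.1% were lower and 33.2% higher. Of the 50 members listed 11 to 13 reached 1 TPM in each ICSI zygote library and 8 to 13 in each ICSI 2-cell library. In the ROSI zygote libraries 31 to 38 did. Members that passed the filter only through ROSI libraries were near the floor after ICSI and could hardly fall, which limits the comparison of shares. Txndc2, a sperm thioredoxin, gave 299.7 TPM of the zygote sum and 72.0 TPM of the 2-cell sum. Prm2, a protamine that packs sperm DNA, was at 23.2, 20.8 and 17.1 TPM in zygotes and at 0.591, 1.96 and 1.56 TPM in 2-cell embryos. Smcp, of the sperm mitochondrial capsule, was listed at 0 in all 6 libraries. Markers of other testis cells summed to 490 to 522 TPM and 397 to 459 TPM, with 6 of 15 tested higher and 6 lower. Oocyte and embryo markers such as H1foo, Nlrp5, Padi6 and Dppa3 were present in all 6 libraries at the levels given above.

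The change after ICSI was also seen after ROSI, in libraries that share no sample with it. Of the 2475 genes at least 4-fold higher after ICSI 2426 were at least 2-fold higher after ROSI, and of the 1861 at least 4-fold lower 1848 were at least 2-fold lower. Median differences were 2.82 after ICSI and 2.95 after ROSI for the first set, and -2.57 and -2.60 for the second. Zfp352, for example, rose by 4.81 (SE 0.24) after ICSI and by 3.43 (SE 0.27) after ROSI, and the difference between these changes did not pass (limma adjusted p = 0.137). The difference between the changes was called for 4 genes, 0.0182% of those tested, and reached an unadjusted p under 0.05 in 15.1%. Gucy2e, a guanylate cyclase of the retina, was at 5.96, 6.43 and 5.92 TPM in ICSI zygotes and 4.88, 6.28 and 6.57 TPM in ICSI 2-cell embryos, while it rose by 1.67 (SE 0.14) after ROSI from 3.84 to 14.4 TPM. Between 0 and 244 genes were called under the alternative settings.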

How the data were processed

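Total RNA was sequenced in 11 libraries, of which 6 are the ICSI libraries compared here. The values are TPM per gene, deposited by the authors in 1 table. The submitters' processing notes name fastp, Bowtie2, STAR 2.7.4a, featureCounts and the build mm10, with no role or order, and how reads of near-identical copies were counted is not given in the sources used here. A gene was tested if 2 or more of the 11 libraries reached 1 TPM, which kept 21938 of 49585. The main test was limma 3.58.1 (R 4.3.3) on log2(TPM + 1), with 4 group means fitted over all 11 libraries, which share 1 estimate of spread, and Benjamini-Hochberg adjustment at 0.05 over all genes tested. The model was tested on simulated data. Depth was recovered from the steps between low TPM values. Of all values above 0 of matched genes, 85.1% to 86.7% came out as whole reads within 0.01 in each library. The recovered depths bear on counting error only.

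Gene types and positions came from GENCODE M21 by gene symbol, for symbols that occur once, which matched 47096 of 49585 entries. The 851 genes tested without a match are in no count of protein-coding genes. The gene lists and members were chosen with earlier results of these data known, so counts over lists describe these data and give no independent support. Named genes are the 15 with the largest called differences in each direction, with libraries that do not overlap, at least 5 TPM in the higher group and a symbol other than a predicted or clone name, 8 in each direction at 100 TPM or more, 4 of each list with the largest called differences and its smallest uncalled one, the members of the gene pairs, the 8 of highest level in each group, 8 stable coding genes, those whose change differed from ROSI and a short list followed throughout. Alternatives changed the pseudocount, filter, scaling, variance model, threshold, libraries and replicate block.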

Additional observations from a re-analysis of the deposited data

Results flagged for a closer look

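The stage change after ICSI differed from that after ROSI in 4 genes by the interaction term of the limma fit with Benjamini-Hochberg adjustment. Gm5542, a gene with a predicted name, went from a mean of 0.0847 TPM to 44.5 TPM after ICSI and from 0.464 TPM to 16.6 TPM after ROSI, a difference in change (ROSI minus ICSI) of -1.80 (SE 0.18, limma adjusted p = 0.0260). Gucy2e, a retinal guanylate cyclase, stayed near its level after ICSI, at 6.10 and 5.91 TPM, and rose after ROSI, with a difference of 1.72 (SE 0.18, limma adjusted p = 0.0260). Gm44565 went from 4.97 to 9.59 TPM after ICSI and from 0.751 to 18.3 TPM after ROSI, a difference of 2.64 (SE 0.31, limma adjusted p = 0.0322). C130074G19Rik went from 1.48 to 14.2 TPM after ICSI and from 0.923 to 32.6 TPM after ROSI, a difference of 1.52 (SE 0.18, limma adjusted p = 0.0322). Gm5542, Gm44565 and C130074G19Rik were called higher after ICSI as well, so these 3 rose after both methods, and none of the 4 differences was called with the replicate number as a block.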

How the results depend on the processing

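Counts of genes that rose and fell stayed within 1.5 times of 7246 and 7687 in each alternative run. Leaving out 1 ICSI library gave 6562 to 7384 higher, 7235 to 7497 lower, 2428 to 2614 at least 4-fold higher, 1820 to 1967 at least 4-fold lower and a median of -0.02 to 0.04. The counts of large changes moved with the pseudocount, to 4524 higher and 3243 lower at 0.1 and to 985 and 970 at 5, and 3957 were higher when scaled over protein-coding genes. The median of all genes was 0.39 with that scaling, -0.09 with quantile normalization and -0.22 with a filter of 5 TPM. Protein-coding genes newly seen or lost were 92 and 2 with limits of 0.5 and 10 TPM. Genes whose change differed from ROSI numbered 220 with array weights, 71 with a filter of 5 TPM, 13 with no filter, 244 with median-ratio scaling, 97 scaled over protein-coding genes, 197 with quantile normalization, 94 with a pseudocount of 5, 0 at a threshold of 0.01 and 0 to 37 without 1 library; the cause was not tested.

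Of 156 named genes, 144 kept their direction and side of the threshold in up to 17 alternatives. Signs turned for Eif4e (0.05 with median-ratio scaling, 0.45 scaled over protein-coding genes, 0.47 with quantile normalization), Hsp90ab1 (0.04, 0.45 and 0.68 in the same order) and Taf4 (0.36 scaled over protein-coding genes, 0.34 with quantile normalization). Gucy2e turned to 0.01 with array weights, 0.06 with median-ratio scaling, 0.43 scaled over protein-coding genes and lay between -0.12 and 0.06 when 1 library was left out, the last without ICSI 2-cell replicate 1. The mitochondrial mt-Rnr2 and Gm23935 were no longer called with quantile normalization or with no filter, and Npm1 was no longer called with quantile normalization (-0.17). Of 595 recomputed list medians 19 had the other sign, in 10 lists.

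The deviations of same-numbered zygote and 2-cell libraries had correlations of 0.04, -0.03 and 0.06. Those of differently numbered libraries lay between -0.09 and 0.06. With 3 libraries per stage, these values cannot show whether same-numbered libraries shared a culture or batch. With the replicate block 7193 genes rose and 7655 fell, 14586 were called with and without it, 347 only without and 262 only with it, and 0 genes differed from ROSI.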
